A study of Mus musculus with 14 samples.

Results

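Isocitrate dehydrogenases and the enzymes that make or remove 2-hydroxyglutarate were followed in mouse hepatoblasts carrying normal or cancer-associated forms of IDH1 and IDH2. The group holds 7 genes (Idh1, Idh2, Idh3a, Idh3b, Idh3g, D2hgdh and Adhfe1) of the 12393 genes that the array's annotation names. They were taken by gene symbol, with earlier results of these data known, and the array carries 13 probe sets for them. Both probe sets of Idh1, the single probe set of Idh2 and, for each other gene, the probe set with the highest mean over the 14 arrays were described in full, which gave 8 probe sets.

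The cells were hepatoblasts, the bipotent progenitors of the fetal liver, taken on embryonic day 14 from embryos of wild-type mice, and they had become immortal after plating at clonal density. On plates coated with rat tail collagen there were 5 groups, which carried IDH1 as wild type or R132C, IDH2 as wild type or R172K, or the vector alone. On uncoated plates, a setting used for hepatocyte differentiation for up to 5 days, there were 2 groups, which carried the vector alone or IDH1 R132C. Each group had 2 cultures on 1 array each. The vectors were doxycycline-inducible, and 25 ng/mL doxycycline is given for the IDH1 experiments. The labels do not give the species of the introduced sequences, or whether they hold the stretch that the mouse probes read, so the Idh1 and Idh2 probe sets cannot check the introduced forms. No label says that the 2 cultures of a group came from separate embryos, so p-values measure the spread between these cultures only.

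IDH1 in the cytosol and peroxisome and IDH2 in mitochondria convert isocitrate to 2-oxoglutarate and make NADPH. IDH3, an assembly of alpha, beta and gamma subunits encoded by Idh3a, Idh3b and Idh3g, carries out the same oxidation in the citric acid cycle with NAD. Substitutions at an active-site arginine, such as R132C in IDH1 and R172K in IDH2, found in intrahepatic cholangiocarcinoma among other cancers, give an enzyme that reduces 2-oxoglutarate to D-2-hydroxyglutarate. D2hgdh encodes the mitochondrial dehydrogenase that oxidizes D-2-hydroxyglutarate back to 2-oxoglutarate. Adhfe1 encodes a hydroxyacid-oxoacid transhydrogenase that makes D-2-hydroxyglutarate while it oxidizes gamma-hydroxybutyrate.

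The arrays agreed closely within groups, with Pearson correlations between 2 replicates of 0.994 to 0.998 over all probe sets, and their number limits the precision. Replicate 1 of IDH2 R172K stood apart: its median intensity was 134.9, against 144.8 to 148.3 on the other 13 arrays. The SD of its difference from replicate 2 was 0.313 on the log2 scale, against 0.189 to 0.249 in the other groups. All 9 hepatoblast markers lay above the arrays' lower quartile in every group, with Hnf4a at group means of 10.88 to 11.71 and Krt19 at 13.61 to 13.97. Dlk1 lay closest to that quartile, at group means of 5.203 to 5.498. Afp had group means of 10.64 on collagen and 9.243 on uncoated plates in vector cells, and 11.52 and 10.69 in IDH1 R132C cells. Epcam had 9.371 and 11.2 in vector cells, and 8.63 and 9.706 in IDH1 R132C cells. In IDH2 R172K cells Hnf4a (10.88), Epcam (8.322), Cdh1 (12.11), Krt8 (14.18) and Krt18 (13.88) had their lowest group means. Afp (11.38) and Krt19 (13.97) there lay above their vector means on collagen (10.64 and 13.88). In IDH2 R172K cells the 9 hepatoblast markers summed to 59753.3 to 60962.7, against 66213.5 to 66996.1 in vector cells on collagen. The defining hepatocyte gene Alb stayed at 4.34 to 4.93 on both plates, near the lower quartile of 4.72 to 4.80, and 3 of 6 hepatocyte markers (Cyp3a11, Tat and G6pc) lay under that quartile in all 7 groups. The 6 markers summed to intensities of 4077 to 4570 in vector cells on collagen and 8636 to 11448 on uncoated plates, and to 2992 to 3714 and 5613 to 10351 in IDH1 R132C cells, and most of each sum was Apob. Apob had group means of 12.03 and 13.18 in vector cells and 11.64 and 12.85 in IDH1 R132C cells on the 2 plates, and Ttr 6.08 and 9.14, and 6.26 and 7.41. In IDH2 R172K cells the 6 hepatocyte markers summed to 2172 to 3668. Apob (11.40) and Ttr (5.83) had their lowest group means there. The 4 blood cell markers summed to 125.8 to 159.5 in vector cells on collagen and to 171.8 to 215.8 on uncoated plates, and to 138.6 to 154.4 and 131.6 to 172.4 in IDH1 R132C cells. The blood cell sum was 147.7 and 233.7 on the 2 IDH2 R172K arrays. These sums hide members that differed. Ptprc had group means of 4.47 on collagen and 6.20 on uncoated plates in vector cells, and 4.16 and 5.35 in IDH1 R132C cells. Cd68 had 5.67 and 5.60, and 5.87 and 5.46. In IDH2 R172K cells Ptprc had its lowest group mean (3.75) and Cd68 its highest (6.71). Of 4 endothelial markers, Pecam1 and Tek lay under the lower quartile in all 7 groups, Kdr lay above it (5.61 to 6.12) and Cdh5 lay near it (4.50 to 4.87). Of 5 mesenchymal markers, Col3a1 lay under it and Des and Acta2 above it in all 7 groups, and their sum was 188.3 to 196.8 in vector cells on collagen and 175.5 to 192.8 on uncoated plates. The part of these markers in the results was not tested, and in bulk RNA fewer cells of a type and less RNA per cell cannot be told apart.

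Promoters are shown for Idh1, Idh2 and Idh3b, as the 250 bases before the RefSeq start in GRCm38.p6, 5′ to 3′ on the gene's strand. Whether these sequences play a part in the differences below was not tested. Capitals mark matches on either strand. The patterns searched were the GC box GGGCGG, the CCAAT box, the ETS-family core CCGGAAG and a core of the HNF4A site, CAAAGNNCA. Matches could overlap. The table held promoters for 5 of the 7 genes and none for Idh3a and Adhfe1.
Idh1, start 1, chr1:65186480-65186729, minus strand: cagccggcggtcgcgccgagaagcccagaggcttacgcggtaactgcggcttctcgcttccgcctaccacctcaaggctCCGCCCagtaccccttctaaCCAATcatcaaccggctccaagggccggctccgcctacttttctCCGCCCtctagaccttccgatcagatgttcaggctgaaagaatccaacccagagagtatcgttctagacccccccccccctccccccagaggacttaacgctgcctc
Idh2, chr7:80115351-80115600, minus strand: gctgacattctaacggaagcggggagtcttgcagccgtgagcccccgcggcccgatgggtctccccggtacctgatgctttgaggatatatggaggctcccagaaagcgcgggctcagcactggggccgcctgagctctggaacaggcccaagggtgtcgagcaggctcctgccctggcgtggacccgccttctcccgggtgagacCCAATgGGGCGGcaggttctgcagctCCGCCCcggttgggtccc
Idh3b, chr2:130284452-130284701, minus strand: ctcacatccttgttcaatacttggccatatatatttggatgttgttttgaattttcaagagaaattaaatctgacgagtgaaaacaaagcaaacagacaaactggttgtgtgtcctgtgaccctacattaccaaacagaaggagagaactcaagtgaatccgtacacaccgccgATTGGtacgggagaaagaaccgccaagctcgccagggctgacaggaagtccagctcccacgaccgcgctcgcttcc
The printed Idh1 and Idh2 windows each hold 2 GC boxes and 1 CCAAT, and those of Idh2 lie within 44 bases of the start. The window of the second Idh1 start, not printed, holds 1 GC box and no CCAAT. The Idh3b window holds 1 CCAAT, 76 bases before the start, and no GC box. GC boxes occur in 32.7% and CCAAT in 33.8% of all 32851 windows of this length. The ETS core, in 6.9% of windows, was found in that of Idh3g alone among the 6 windows of these genes, and CAAAGNNCA, in 5.5%, in none of the 6. A match is a run of letters, not a measured binding site.

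Values below are log2 of the authors' normalized intensity. Levels were not compared between probe sets, whose probes differ in affinity. Differences were tested with limma over all 22626 probe sets that are not controls, and a probe set was called at a Benjamini-Hochberg adjusted p under 0.05. Over the 7 groups together, 4 of the 7 genes differed on the probe set with the highest mean (Idh2, Idh3a, Idh3b and Adhfe1). Of all probe sets, 31.6% were called. The dimmer Idh1 probe set was called too (limma adjusted p = 0.0442). The adjusted p of Idh3b was 0.0522 without replicate 1 of vector on uncoated plates.

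Idh1, the cytosolic enzyme, had its lowest values in IDH2 R172K cells. On its brighter probe set (1422433_s_at) the 2 arrays read 11.97 and 12.26 in vector cells, 11.99 and 12.13 with wild-type IDH1, 11.81 and 11.97 with IDH1 R132C, 11.91 and 12.28 with wild-type IDH2, and 11.21 and 11.78 with IDH2 R172K, all on collagen. On uncoated plates they read 12.19 and 12.28 in vector cells and 11.98 and 12.16 in IDH1 R132C cells. Both IDH2 R172K arrays lay below all 12 other arrays, but they also lay farthest apart from each other. From the highest mean (vector on uncoated plates, 12.23 ± 0.067, SD, n = 2) to the fifth (wild-type IDH1, 12.06 ± 0.099) each group's values overlapped those of the next. IDH1 R132C on collagen (11.89 ± 0.11) lay below wild-type IDH1 by more than the larger SD of the pair, while the gap down to IDH2 R172K (11.50 ± 0.41) was smaller than the larger SD.

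The second Idh1 probe set (1419821_s_at) gave a like order. It read 11.24 and 11.46 in vector cells, 11.22 and 11.48 with wild-type IDH1, 11.02 and 11.29 with IDH1 R132C, 11.20 and 11.50 with wild-type IDH2, and 10.61 and 11.06 with IDH2 R172K on collagen. On uncoated plates it read 11.50 and 11.59 in vector cells and 11.35 and 11.50 in IDH1 R132C cells. Here 1 IDH2 R172K array overlapped the IDH1 R132C arrays on collagen. The test over the 7 groups gave an adjusted p of 0.0520 for the first probe set and 0.0442 for the second, on either side of the threshold. Leaving out 1 array moved each across it, to 0.00661 for the first probe set without replicate 2 of IDH2 R172K and to 0.205 for the second without replicate 1. Between plates the first probe set differed by 0.12 (SE 0.17, adjusted p = 0.683) in vector cells and by 0.18 (SE 0.17, adjusted p = 0.519) in IDH1 R132C cells, and the second by 0.19 and 0.28 (adjusted p = 0.440 and 0.246), none of which was called.

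The IDH2 R172K difference in Idh1 did not pass the test with all arrays and no replicate block. Its size moved when either IDH2 R172K array was left out. Idh1 read higher in replicate 2 than in replicate 1 in 7 of 7 groups on both probe sets. With the replicate number as a block, Idh1 was called in the 3 comparisons given here. Its second probe set was then also called between plates in IDH1 R132C cells, as the last section reports. The labels do not say what a replicate number shares. Idh1 was lower in IDH2 R172K than in wild-type IDH2 cells by a log2 change of -0.60 (SE 0.17, 95% interval -0.96 to -0.23, limma adjusted p = 0.123) on the first probe set and -0.51 (SE 0.16, adjusted p = 0.153) on the second. Without replicate 1 of IDH2 R172K the first was -0.31 (adjusted p = 0.570), and without replicate 2 it was -0.88 and called (adjusted p = 0.00744). Against vector the change was -0.62 (adjusted p = 0.0745), with -0.33 (adjusted p = 0.402) without replicate 1 and -0.90 (adjusted p = 0.00567) without replicate 2. With both mutants set against both wild types on collagen it was -0.38 (SE 0.12, adjusted p = 0.128), with -0.24 (adjusted p = 0.311) and -0.53 (adjusted p = 0.0116) without the same arrays. On the second probe set the same omissions gave -0.28 (adjusted p = 0.638) and -0.73 (adjusted p = 0.0152) against wild-type IDH2. With all arrays and no block, none of the 7 genes was called by limma in these 3 comparisons. Of all probe sets, 1.02%, 2.66% and 2.06% were called there. On the probe sets described in full Idh1 alone had an unadjusted p under 0.05. Of the other probe sets, Idh3a 1422500_at had 0.40 (unadjusted p = 0.0260, adjusted p = 0.251) against wild-type IDH2 and 0.35 (unadjusted p = 0.0480, adjusted p = 0.260) against vector.

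No introduced IDH1 form moved Idh1 past the test. The wild-type IDH1 group differed from vector by -0.05 (SE 0.17), with an interval of 0.751 to 1.25 times the vector level, and the second probe set gave 0.788 to 1.26 times. IDH1 R132C differed from vector by -0.22 (adjusted p = 0.967) and from wild-type IDH1 by -0.17 (adjusted p = 0.948) on the first probe set. None of the 7 genes was called in these 3 comparisons or for wild-type IDH2 against vector, in each of which 0% of all probe sets were called. limma's unadjusted p was under 0.05 for none of their 13 probe sets there, and for 258, 1387, 1461 and 219 probe sets in wild-type IDH1 against vector, IDH1 R132C against vector, IDH1 R132C against wild-type IDH1 and wild-type IDH2 against vector.

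**Figure D1:**
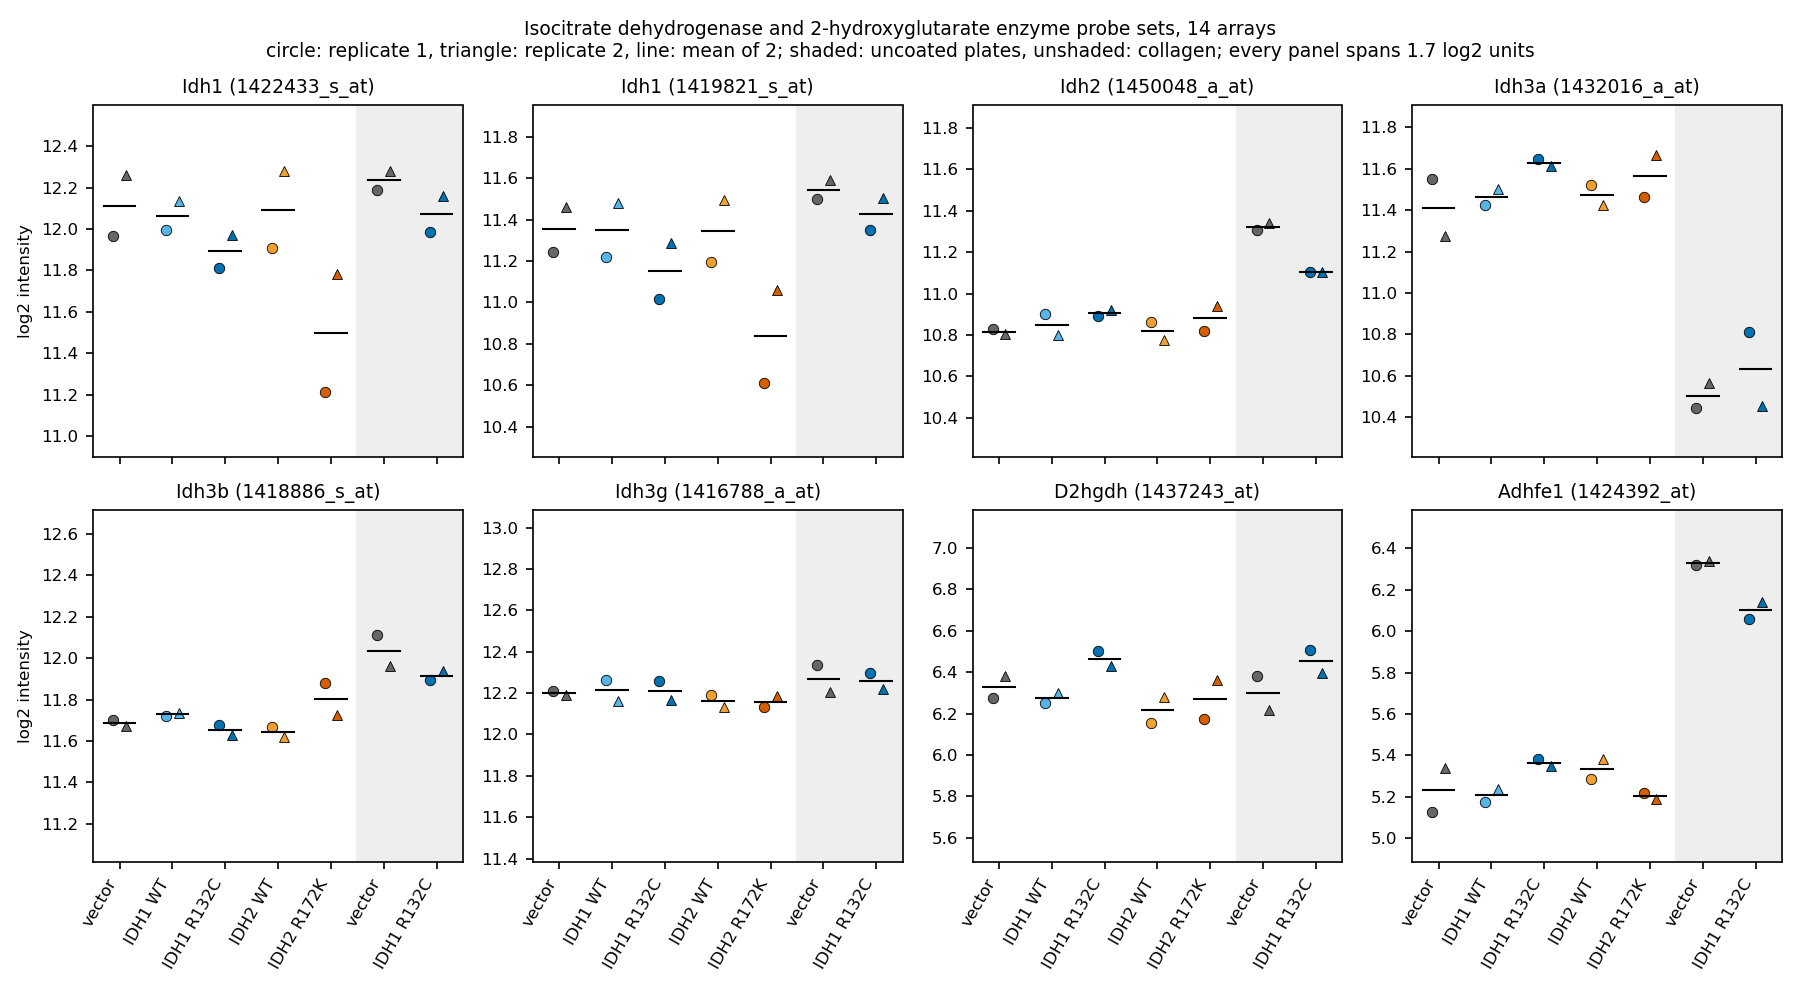
Log2 intensity (vertical axis) of the 8 probe sets in the 7 groups (horizontal axis), with a circle and a triangle for the 2 replicates, a line at their mean and uncoated plates shaded. Idh2 and Adhfe1 were higher and Idh3a lower on all 4 uncoated arrays than on all 10 collagen arrays, and the lowest Idh1 values are those of IDH2 R172K.

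Idh2, the mitochondrial enzyme, rose on uncoated plates in vector cells. Its probe set (1450048_a_at) read 10.83 and 10.80 in vector cells, 10.90 and 10.80 with wild-type IDH1, 10.89 and 10.92 with IDH1 R132C, 10.86 and 10.78 with wild-type IDH2, and 10.82 and 10.94 with IDH2 R172K on collagen. On uncoated plates it read 11.31 and 11.34 in vector cells and 11.10 on both arrays of IDH1 R132C cells. All 4 uncoated arrays lay above all 10 collagen arrays, and the vector pair lay above the IDH1 R132C pair. The 5 collagen groups had means of 10.82 to 10.91, and each overlapped its neighbours in the order. In vector cells Idh2 rose 1.42-fold on uncoated plates (log2 change 0.51, SE 0.078, limma adjusted p = 0.000391, n = 2 and 2).

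In IDH1 R132C cells the Idh2 difference between plates was 0.20 (SE 0.078, adjusted p = 0.0871) and was not called, although no array of either plate overlapped the other. Without either replicate of IDH2 R172K, whose arrays add to the shared estimate of the spread, it was called (adjusted p = 0.0364 in each case). The plate difference in IDH1 R132C cells was smaller than that in vector cells by a log2 change of -0.31 (SE 0.11, 95% interval -0.55 to -0.07), which did not pass the correction (adjusted p = 0.728). On uncoated plates IDH1 R132C cells differed from vector cells by -0.22 (95% interval -0.39 to -0.05, adjusted p = 0.231). On collagen, wild-type IDH2 and IDH2 R172K cells lay between 0.891 and 1.13 times and between 0.931 and 1.18 times the vector level of Idh2 by their 95% intervals.

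Among the 3 subunits of the NAD-dependent enzyme, the alpha subunit fell and the beta subunit rose on uncoated plates, and the gamma subunit did not pass the test. The alpha subunit holds the catalytic site together with residues of its partners. Idh3a (1432016_a_at) read 11.55 and 11.27 in vector cells, 11.42 and 11.50 with wild-type IDH1, 11.65 and 11.61 with IDH1 R132C, 11.52 and 11.43 with wild-type IDH2, and 11.46 and 11.67 with IDH2 R172K on collagen. It read 10.45 and 10.56 in vector cells and 10.81 and 10.45 in IDH1 R132C cells on uncoated plates. The plates did not overlap, the 5 collagen groups overlapped each other in turn, and the 2 uncoated groups overlapped. Idh3a fell 1.88-fold in vector cells (log2 change -0.91, SE 0.12, adjusted p = 0.000170) and 1.99-fold in IDH1 R132C cells (-0.996, SE 0.12, adjusted p = 0.000188).

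The other 2 Idh3a probe sets moved less. In vector cells they fell by 0.43 (1422501_s_at, adjusted p = 0.0435) and 0.51 (1422500_at, adjusted p = 0.0321) on the log2 scale. In IDH1 R132C cells their changes were -0.42 (adjusted p = 0.0531, not called) and -0.49 (adjusted p = 0.0405). They disagreed on replicate 1 of IDH2 R172K: 1422500_at read 7.70 there, against 6.99 to 7.20 on the other 9 collagen arrays, while 1422501_s_at read 7.60, against 7.85 to 8.07.

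Idh3b encodes the beta subunit. Its probe set (1418886_s_at) read 11.70 and 11.67 in vector cells, 11.72 and 11.74 with wild-type IDH1, 11.68 and 11.63 with IDH1 R132C, 11.67 and 11.62 with wild-type IDH2, and 11.88 and 11.73 with IDH2 R172K on collagen. It read 12.11 and 11.96 in vector cells and 11.90 and 11.94 in IDH1 R132C cells on uncoated plates, above all 10 collagen arrays. The highest collagen value was that of IDH2 R172K replicate 1. Idh3b rose 1.27-fold in vector cells (log2 change 0.35, SE 0.077, adjusted p = 0.00458) and 1.20-fold in IDH1 R132C cells (0.26, SE 0.077, adjusted p = 0.0255).

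In order of means, vector on uncoated plates (12.04 ± 0.11, SD, n = 2) and IDH1 R132C on uncoated plates (11.92 ± 0.029) came first and did not overlap, and IDH2 R172K (11.80 ± 0.11) overlapped wild-type IDH1 below it. With 1 array left out the change on this probe set lay between 0.27 and 0.43 in vector cells, between 0.24 and 0.29 in IDH1 R132C cells, and some calls were lost. The vector call was lost without replicate 1 of vector on uncoated plates (0.27, adjusted p = 0.0651). The IDH1 R132C call was lost without replicate 1 or 2 of IDH1 R132C on collagen (0.29 and 0.24, adjusted p = 0.0861 and 0.141) or on uncoated plates (0.28 and 0.24, adjusted p = 0.0731 and 0.149). The second Idh3b probe set (1418885_a_at) gave 0.36 (adjusted p = 0.00251) in vector cells and 0.38 (adjusted p = 0.00221) in IDH1 R132C cells.

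Idh3g, the gamma subunit, had the narrowest range of group means among the probe sets described in full, 12.16 to 12.27 on 1416788_a_at, and every group overlapped its neighbour in the order. Its 14 values ran from 12.13 to 12.34. The plate difference was 0.07 (adjusted p = 0.558) in vector cells and 0.05 (adjusted p = 0.723) in IDH1 R132C cells, and the test over the 7 groups gave an adjusted p of 0.777. Its dimmer probe set (1416789_at) had group means of 11.54 to 11.79, a wider range, and gave 0.23 in vector cells (adjusted p = 0.0564).

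**Figure D2:**
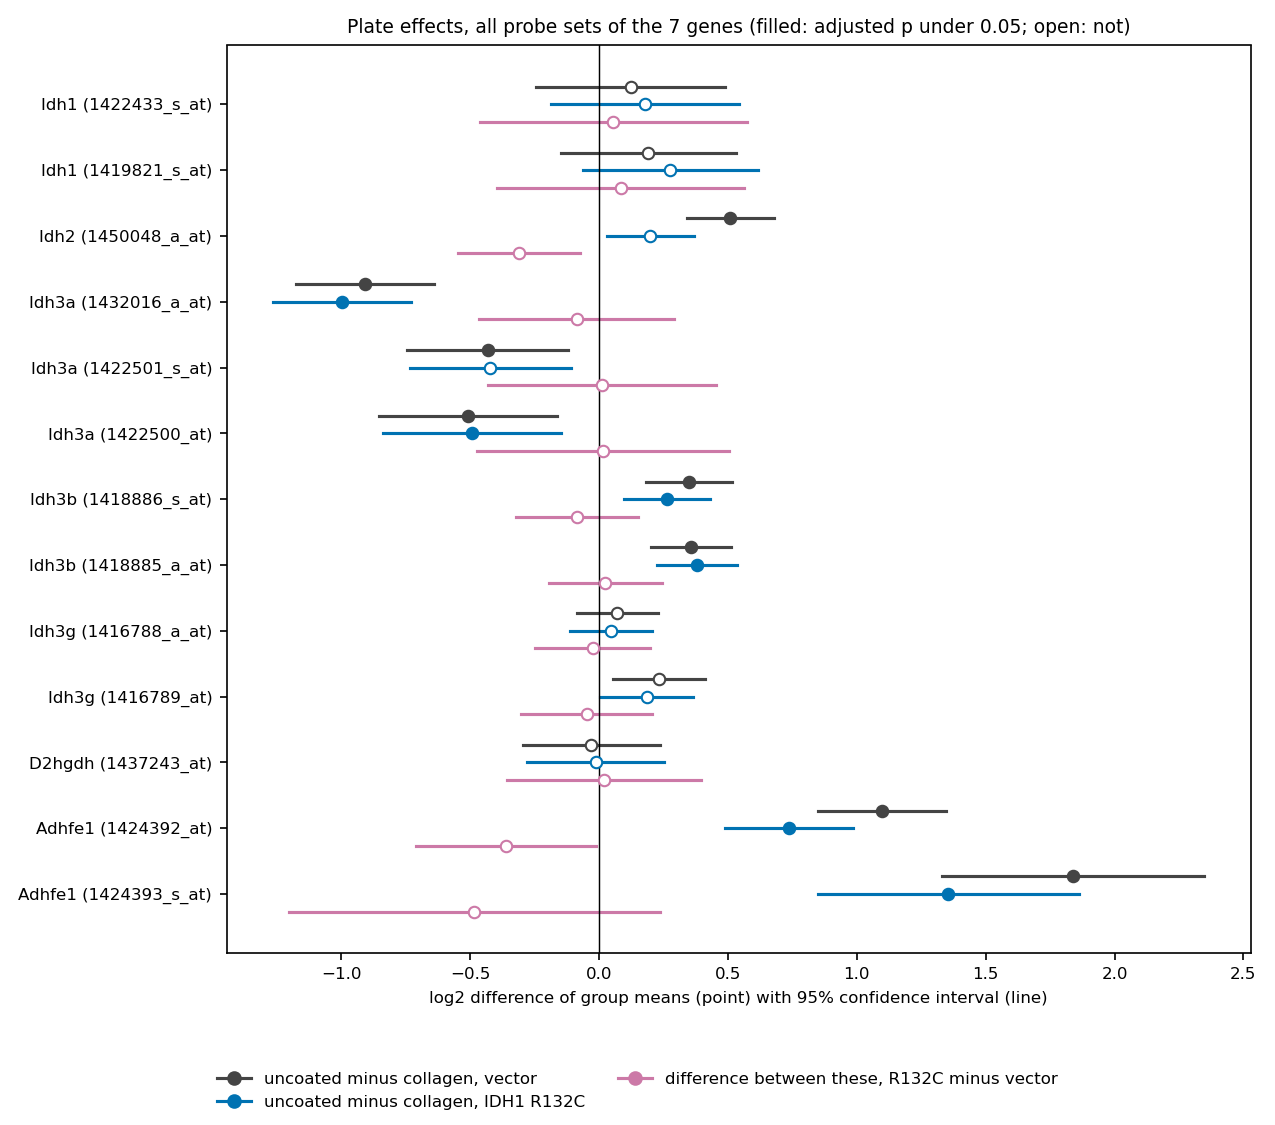
Log2 difference between uncoated and collagen plates (horizontal axis, point with 95% interval) for all 13 probe sets in vector cells, in IDH1 R132C cells, and the difference between these. Filled points passed an adjusted p under 0.05; Adhfe1 lies to the right and Idh3a to the left of 0, and no difference between the 2 plate effects is filled.

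The enzyme that removes D-2-hydroxyglutarate, D2hgdh, was dim and moved little. Its probe set (1437243_at) read 6.28 and 6.38 in vector cells, 6.25 and 6.30 with wild-type IDH1, 6.50 and 6.43 with IDH1 R132C, 6.16 and 6.28 with wild-type IDH2, and 6.18 and 6.36 with IDH2 R172K on collagen. On uncoated plates it read 6.38 and 6.22 in vector cells and 6.51 and 6.40 in IDH1 R132C cells. The 4 IDH1 R132C arrays, at 6.40 to 6.51, lay above the 10 others, at 6.16 to 6.38, a split chosen after its values were seen and given with no test. No planned comparison of D2hgdh passed the test: IDH1 R132C differed from vector by 0.15 (SE 0.12, adjusted p = 0.754) on uncoated plates, and the test over the 7 groups gave an adjusted p of 0.542. Vector on collagen, vector on uncoated plates, wild-type IDH1, IDH2 R172K and wild-type IDH2 followed in that order of means and each overlapped the next. The IDH2 R172K arrays had D2hgdh values inside the range of the vector and wild-type arrays, and no cause of the split was tested.

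The transhydrogenase gene Adhfe1 rose on uncoated plates with the smallest adjusted p among the 7 genes over the 7 groups. Its probe set (1424392_at) read 5.13 and 5.34 in vector cells, 5.17 and 5.24 with wild-type IDH1, 5.38 and 5.35 with IDH1 R132C, 5.28 and 5.38 with wild-type IDH2, and 5.22 and 5.19 with IDH2 R172K on collagen. On uncoated plates it read 6.32 and 6.34 in vector cells and 6.06 and 6.14 in IDH1 R132C cells. The plates did not overlap, on uncoated plates the vector pair lay above the IDH1 R132C pair, and each collagen group overlapped the next in the order of means. The collagen values lay a little above the arrays' lower quartile of 4.72 to 4.80 and below their medians of 7.07 to 7.21.

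Adhfe1 rose 2.14-fold in vector cells (log2 change 1.10, SE 0.11, adjusted p = 2.63e-05) and 1.67-fold in IDH1 R132C cells (0.74, SE 0.11, adjusted p = 0.000672). The second probe set (1424393_s_at) rose as well, by 1.84 (adjusted p = 0.000109) and 1.36 (adjusted p = 0.00133) on the log2 scale. Its collagen values of 4.21 to 5.16 lie around the arrays' lower quartile and are not clearly above background, so no fold is given from them, and its uncoated values were 6.01 to 6.84. The difference between the 2 plate effects was -0.36 (SE 0.16, 95% interval -0.71 to -0.01) on the first probe set and did not pass the correction (adjusted p = 1.00). On uncoated plates IDH1 R132C cells differed from vector cells by -0.23 (adjusted p = 0.474) on the first probe set and -0.59 (adjusted p = 0.306) on the second.

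Counted over the 7 genes, 3 rose and 1 fell on uncoated plates in vector cells, where 25.8% of all probe sets were called, 12.8% higher and 13.1% lower. In IDH1 R132C cells 2 rose and 1 fell, where 23.2% of all probe sets were called, 11.7% higher and 11.4% lower. The median change of the 7 genes was 0.12 in vector cells and 0.18 in IDH1 R132C cells, beside -0.03 over all probe sets in each. None of the 7 was called in the difference between the 2 plate effects (0.172% of probe sets called by limma), where Idh2 and Adhfe1 had an unadjusted p under 0.05 on the probe sets described in full. None was called in IDH1 R132C against vector on uncoated plates (1.56% called), where Idh2 alone of the same probe sets had an unadjusted p under 0.05, and the second Adhfe1 probe set had 0.0265.

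**Figure D3:**
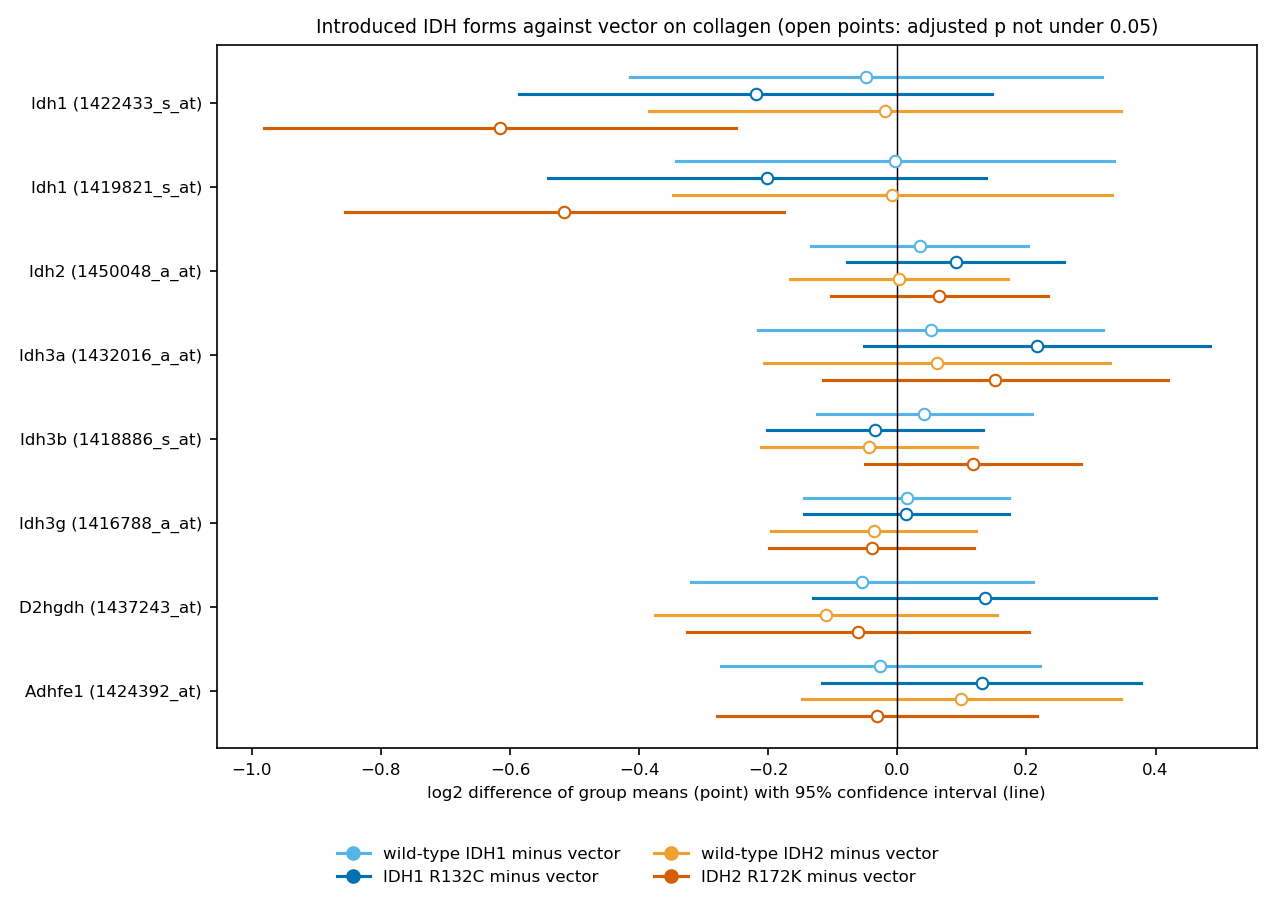
Log2 difference from vector cells on collagen (horizontal axis, point with 95% interval) of the 8 probe sets in cells with each introduced form of IDH1 and IDH2. All points are open, since none passed an adjusted p under 0.05, and those farthest from 0 are the Idh1 probe sets in IDH2 R172K cells, at -0.62 and -0.52.

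For the other 6 genes the 7 comparisons on collagen gave no call. On the probe sets described in full, 1 a gene, their changes ran from -0.13 to 0.22 on the log2 scale, and the outermost 95% limits were 0.770 and 1.40 times the reference level. The smallest adjusted p was 0.340, and 0 of these tests had an unadjusted p under 0.05 by limma. On the 5 other probe sets changes ran from -0.48 to 0.40, with outermost limits of 0.503 and 1.85 times, and 2 of 35 tests, both of Idh3a 1422500_at, had an unadjusted p under 0.05 (smallest adjusted p = 0.251). Without replicate 2 of IDH2 R172K, Idh3b was called against wild-type IDH2 (0.24, adjusted p = 0.0492).

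Neighbouring steps of the pathway were followed in 3 gene lists. Their counts stand beside the 25.8% of all probe sets called between plates in vector cells and 23.2% in IDH1 R132C cells. The lists were chosen with earlier results of these data known. Each listed gene was read on its brightest probe set, while these shares cover all probe sets, dim ones included. No list was tested against these shares. Of 13 measured partners in the citric acid cycle, 2 rose and 3 fell on uncoated plates in vector cells, and 1 rose and 4 fell in IDH1 R132C cells. Citrate synthase (Cs), which supplies the cycle's citrate, fell by 0.55 on the log2 scale in each (SE 0.11, adjusted p = 0.00290 and 0.00382). In vector cells Suclg1, a subunit of succinyl-CoA synthetase, rose by 0.40 (SE 0.084, adjusted p = 0.00330). In IDH1 R132C cells Ogdh, the first enzyme of the 2-oxoglutarate dehydrogenase complex, fell by 0.49 (SE 0.098, adjusted p = 0.00319). The 5 calls in vector cells became 3, 2, 3 and 3 without replicate 1 or 2 on collagen or replicate 1 or 2 on uncoated plates, and the 5 in IDH1 R132C cells became 2 without replicate 1 on collagen or replicate 2 on uncoated plates. The median change of this list was -0.00 and -0.07, beside -0.03 over all probe sets in each.

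Of 11 measured genes whose enzymes or carriers supply or use 2-oxoglutarate or 2-hydroxyglutarate, 3 rose and 3 fell in vector cells, and 3 rose and 4 fell in IDH1 R132C cells. Glud1, which interconverts glutamate and 2-oxoglutarate, rose by 0.71 (SE 0.088, adjusted p = 9.23e-05) and 0.57 (SE 0.088, adjusted p = 0.000666). Ldha, lactate dehydrogenase A, fell by 0.54 (adjusted p = 0.000800) and 0.48 (adjusted p = 0.00236). Phgdh, the first enzyme of serine synthesis, fell by 0.74 in vector cells (SE 0.13, adjusted p = 0.000893). The 7 calls in IDH1 R132C cells became 3, 4, 4 and 2 without replicate 1 or 2 on collagen or replicate 1 or 2 on uncoated plates. These counts of 6 and 7 of 11 stand beside 25.8% and 23.2% of all probe sets called, with the limits given before the first list. The list's median change was -0.04 and -0.11, beside -0.03 over all probe sets in each.

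The last list held 8 measured genes of other enzymes that can make NADPH. The enzymes of Mthfd2 and Me2 also use NAD, and the cofactor used in these cells was not measured. Of the 8 genes, 2 rose and 4 fell in vector cells, and 2 rose and 5 fell in IDH1 R132C cells. Mthfd2, a mitochondrial enzyme of one-carbon metabolism, fell 3.81-fold (log2 change -1.93, SE 0.41, adjusted p = 0.00339) and 3.91-fold (-1.97, SE 0.41, adjusted p = 0.00383). Me1, cytosolic malic enzyme, fell by 0.74 in vector cells (SE 0.11, adjusted p = 0.000287). H6pd, which makes NADPH in the endoplasmic reticulum, rose by 0.69 (adjusted p = 0.000326) and 0.70 (adjusted p = 0.000506). Nnt, the transhydrogenase of the inner mitochondrial membrane, rose by 0.68 in IDH1 R132C cells (SE 0.090, adjusted p = 0.000263). These counts of 6 and 7 of 8 stand beside 25.8% and 23.2% of all probe sets called, with the limits given before the first list. The list's median change was -0.38 and -0.47, beside -0.03 over all probe sets in each.

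Over the 3 lists, 17 of 32 genes were called in vector cells and 19 in IDH1 R132C cells, beside 25.8% and 23.2% of all probe sets. Of these 16 were called in both, all in the same direction, which is 16 of 17 and 16 of 19. The share of all probe sets called in both was not counted, so this overlap is not read as a trait of the lists. Over all probe sets, 0.172% were called in the difference between the 2 plate effects. The difference between the 2 plate effects was called for 0 of the 32 genes (smallest limma adjusted p = 1.00), and none was called in the other 8 comparisons. Several calls were lost when 1 array was left out. Those given here are limited to called genes with the largest changes in each list. In some omissions the list counts fell further, so other called genes were lost too. In vector cells the lost calls included Dlst, a subunit of the 2-oxoglutarate dehydrogenase complex (-0.34), and Sdhd, a subunit of succinate dehydrogenase (0.29). They also included Got1, the cytosolic aspartate aminotransferase (-0.88), and Mthfd1, a cytosolic enzyme of one-carbon metabolism (-0.62). Without replicate 1 of vector on collagen the adjusted p was 0.167 for Dlst (-0.30) and 0.253 for Mthfd1 (-0.35), and without replicate 2 it was 0.0591 for Dlst (-0.38), 0.0779 for Sdhd (0.26) and 0.0755 for Got1 (-0.80). Without replicate 1 of vector on uncoated plates it was 0.136 for Sdhd (0.21) and 0.0517 for Got1 (-0.97), and without replicate 2 it was 0.217 for Dlst (-0.24), 0.0972 for Got1 (-0.79) and 0.142 for Mthfd1 (-0.52). In IDH1 R132C cells they included Dlst (-0.43), Sdhb, another subunit of succinate dehydrogenase (-0.33), Phgdh (-0.44), Got1 (-0.99) and Mthfd1 (-0.83). Without replicate 1 of IDH1 R132C on collagen the adjusted p was 0.0787 for Dlst (-0.40), 0.109 for Sdhb (-0.27), 0.110 for Phgdh (-0.44) and 0.0628 for Mthfd1 (-0.71), and without replicate 2 it was 0.106 for Phgdh (-0.43) and 0.0878 for Got1 (-0.83). Without replicate 2 of IDH1 R132C on uncoated plates it was 0.0818 for Dlst (-0.39), 0.101 for Sdhb (-0.28), 0.185 for Phgdh (-0.36), 0.0783 for Got1 (-0.91) and 0.0608 for Mthfd1 (-0.72).

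**Figure D4:**
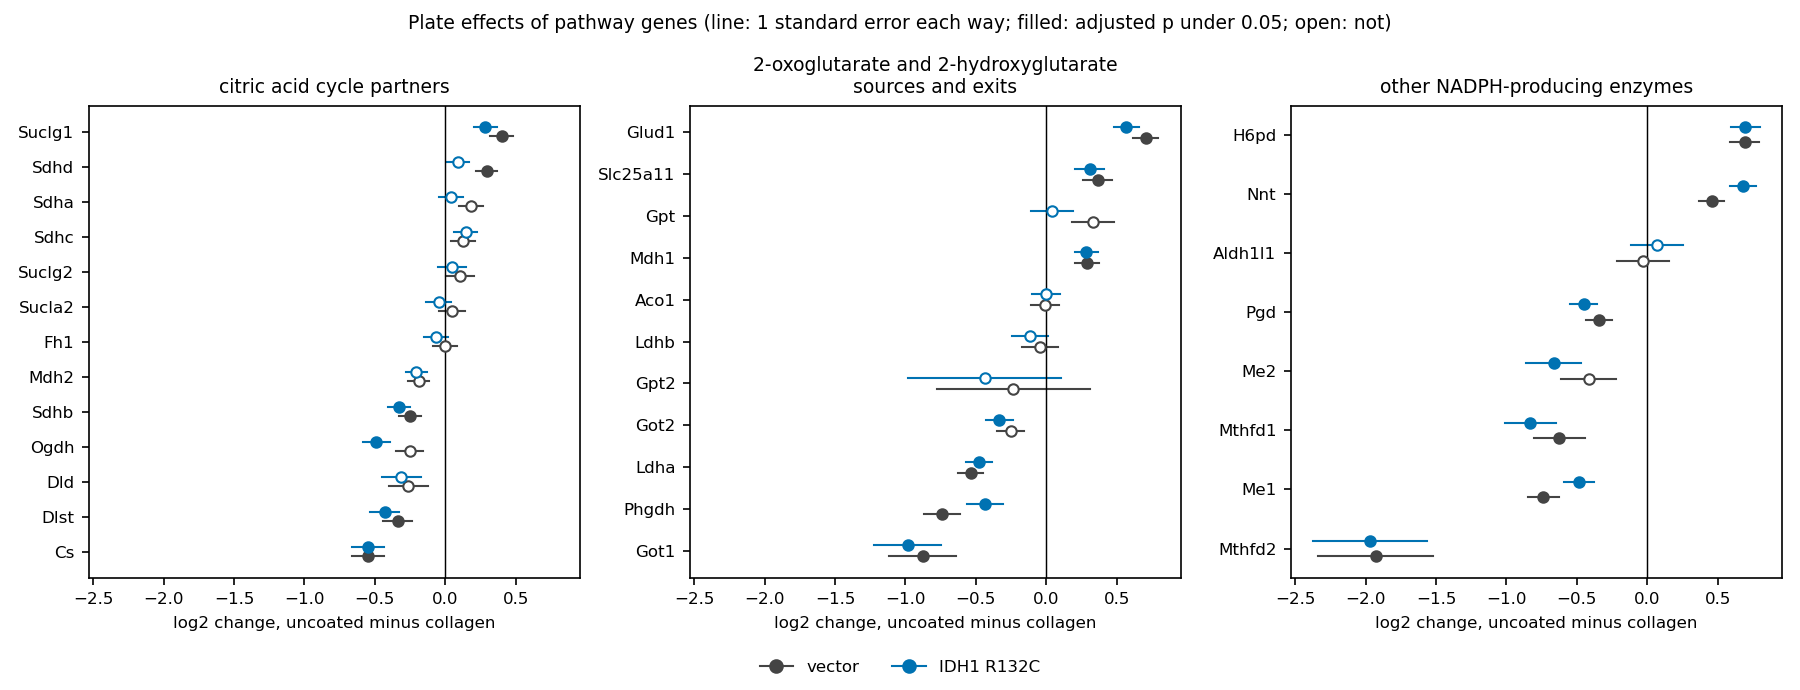
Log2 change from collagen to uncoated plates (horizontal axis, with 1 standard error each way) of the 32 measured genes in the 3 pathway lists, for vector cells (grey) and IDH1 R132C cells (blue). Filled points passed an adjusted p under 0.05; Mthfd2 lies farthest left in both, and Glud1 and H6pd lie to the right.

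The genes whose profiles were most like each of the 7 were ranked by Pearson's r over the 14 arrays, with r over the 10 collagen arrays beside it, since the 2 plates form separate clusters for several genes. For each member the nearest were picked from 6116 or 6117 candidate genes with a mean above that of the median gene, so high values of r are selected. The arrays share their normalization, and the values are given as a description. For Idh1 they were Tnfaip8 (r = 0.986 over 14 arrays and 0.990 over 10), Stk38 (0.977 and 0.983) and Snx4 (0.960 and 0.983). For Idh3a the nearest was Aurka, the mitotic kinase, at 0.992 and 0.990, followed by Azin1 at 0.991 and 0.858. For Idh2 the nearest was Ubn1, at 0.955 and 0.628, and for Adhfe1 it was Rere, at 0.989 and 0.510, so that both were less alike within collagen. Idh3b was nearest to Mcoln1 (0.957 and 0.778), Idh3g to Nsmce2 (0.924 and 0.880) and D2hgdh to Psmb2 (0.850 and 0.796). Between members, Idh2 and Adhfe1 had r = 0.926 over 14 arrays and -0.155 over the 10 on collagen. The largest absolute r over 14 arrays was that of Idh3a and Adhfe1, at -0.956 and -0.109. Idh2 and Idh3a had -0.859 and 0.678, and Idh1 and Idh3b had 0.049 and -0.800.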

How the data were processed

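RNA from 14 cultures in 7 groups was measured on Affymetrix mouse expression arrays. The authors deposited RMA-normalized intensity values on a linear scale (RMA per the submitters' processing notes; its version is not given in the sources used here), and log2 was taken here. RMA sets all arrays to a like distribution, so changes are relative to the rest of the array. Of 22690 probe sets, 64 controls were left out and 22626 tested. limma 3.58.1 (R 4.3.3) fitted the 7 group means, eBayes used an intensity trend, and there were 11 comparisons and a test over the 7 groups, Benjamini-Hochberg adjusted over all probe sets. The fit was checked on simulated data. Probe sets were named through the platform annotation: 20380 had 1 symbol, 691 had several and 1555 had none. For listed pathway genes the probe set with the highest mean was used, and per list and plate effect the 4 called genes with the largest change were named. The genes and lists were chosen with earlier results of these data known. Alternatives were other scalings, filters and offsets, fewer arrays, and each array left out.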

Additional observations from a re-analysis of the deposited data

How the results depend on the processing

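No called change of the 7 genes reversed under any alternative run. The counts of called genes that moved by over 1.5 times were those of the 3 comparisons that hold IDH2 R172K, each 0 as reported. With the replicate number as a block 1 gene, Idh1, was called in each of IDH2 R172K against wild-type IDH2, IDH2 R172K against vector and both mutants against both wild types (adjusted p = 0.0110, 0.00574 and 0.0110 on the first probe set, 0.0103, 0.00594 and 0.00686 on the second). The changes were the same, and the SE of the first fell to 0.10. With the block the second Idh1 probe set was also called by limma between plates in IDH1 R132C cells (0.28, adjusted p = 0.0321). The limma test over the 7 groups then called the first Idh1 probe set (adjusted p = 0.00132). Idh1 in IDH2 R172K minus wild-type IDH2 was -0.70 between replicates 1 and -0.49 between replicates 2. With single arrays left out, the counts ran from 0 to 2, 0 to 1 and 0 to 1. Same-numbered deviations correlated above 0.1 in 9 of 10 pairs of collagen groups (0.0527 to 0.479), in the 1 pair of uncoated groups (0.263) and in 2 of 10 pairs across plates (-0.0926 to 0.180). The labels do not say what a number shares and not every pair passed 0.1, so the reported values have no block. Idh1 was higher in replicate 2 in 7 of 7 groups. Plate counts, 4 and 3 as reported, ran from 3 to 4 in vector and 2 to 4 in IDH1 R132C cells with single arrays left out, and from 2 to 4 in IDH1 R132C cells under other settings. Idh2 in IDH1 R132C cells was called under cyclic loess (0.21, adjusted p = 0.0473) and array weights (adjusted p = 0.0312), and Idh3b there was not under median centring (adjusted p = 0.0555) or without the intensity trend (adjusted p = 0.0603). Among values not called, 19 of 788 changed sign under other settings and 55 of 1134 with an array left out, none larger than 0.13 as reported. Counts of called pathway genes ran from 2 to 7 per list with single arrays left out. The cause of these shifts was not tested. With 2 cultures a group, the widest errors among the probe sets described in full were those of Idh1 (SE 0.17 and 0.16).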
